A study of Mus musculus with 12 samples.

Results

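Plasma cells carrying a human CD4 reporter were compared with plasma cells lacking it, 60 days after mice were given tamoxifen. The 3 libraries labelled human CD4+ at day 60 (marked) were set against the 3 labelled human CD4- at day 60 (unmarked), 6 of the 12 libraries of the series. All groups came from the bone marrow of C57BL/6 mice of the genotype BLTcre.mcl1fl/+, so the unmarked cells carry the Cre construct and the floxed Mcl1 allele too and come from tamoxifen-treated mice. The other 6 libraries hold the same 2 populations at day 270. Each marked library shares its specimen number with 1 unmarked library of the same day, and these numbers define 3 pairs. The labels give neither the age or sex of the mice, nor the sort gates, nor whether a specimen was 1 mouse or a pool. They do not say whether marked cells lost the floxed allele. Of the 14219 genes in the deposited table, 11709 had enough reads to be tested.

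A plasma cell is the antibody-secreting end stage of a B cell. On the way there a B cell becomes a dividing plasmablast, loses the B cell programme and MHC class II, leaves the cell cycle and settles in a niche such as the bone marrow, guided by chemokine and sphingosine phosphate receptors. Cre recombination is permanent, so a cell in which tamoxifen switched the reporter on keeps it, and a cell formed later from an unmarked precursor lacks it. A plasma cell already present at tamoxifen in which the reporter was not switched on lacks it too, so unmarked libraries can hold both.

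The table's reads numbered 8405847 to 14531419 per library. They exclude immunoglobulin chains, absent from the table apart from Jchain, and so fall short of a library's whole depth. Levels are given as CPM, reads per library scaled to 1 common total. Marked replicate 2 had the fewest reads, and ribosomal RNA-like genes took 11.9% of them, against 0.372% to 3.10% in the other 5 libraries. Jchain took 31.3% of marked replicate 1, against 20.3% to 24.6% in the others. The first principal component carried 29.7% of the variance and placed the marked libraries at 16.2 to 42.0 and the unmarked ones at -43.0 to -20.3. Replicates differed by 22.2 to 160.0 times counting error (chi-square per degree of freedom), so no library repeats another. In specimens 2 and 3 the unmarked libraries have numbers 15 and 16 and the marked ones 25 and 27, so effects of library number and of marking cannot be told apart in them. In specimen 1 they are neighbours, 7 and 8.

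Mcl1, the anti-apoptotic Bcl2 family member that plasma cells depend on, is the gene with the floxed allele. It lies at chr3:95658788-95663176 (GRCm38). Mcl1 measured 342, 392 and 508 CPM in marked replicates 1, 2 and 3, against 538, 483 and 539 CPM in unmarked replicates 1, 2 and 3. Every marked library but the third was below all unmarked ones. The log2 fold change was -0.35 ± 0.15 (SE), adjusted p = 0.297, and it did not pass. Fold changes are of log2(CPM + 0.5), marked over unmarked, from limma with the specimen as a block, and p-values are adjusted by Benjamini-Hochberg over the 11709 genes. A whole-gene value cannot tell a recombined allele from an intact one.

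Genes that define plasma cells were abundant in both populations. Sdc1, the surface syndecan used to sort plasma cells, averaged 2009.9 ± 241 CPM in marked and 2008 ± 116 CPM in unmarked libraries (SD, n = 3 each, as for all such means). Xbp1, the transcription factor of the secretory programme, averaged 4520.1 ± 515 CPM in marked and 5023 ± 588 CPM in unmarked libraries. Tnfrsf17, the survival receptor BCMA, averaged 374 ± 26.7 CPM and 313 ± 49.4 CPM in marked and in unmarked libraries. The factor genes Prdm1 and Irf4 had log2 fold changes of -0.38 and -0.27, with adjusted p = 0.295 and 0.427. Of the 20 tested genes of plasma cell identity, 0 passed, and their median log2 fold change was -0.11, against -0.13 over all genes tested.

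At an adjusted p under 0.05, 207 of 11709 genes (1.77%) differed between marked and unmarked cells, 40 higher (0.342%) and 167 lower (1.43%) in marked cells. Of the 207, 141 changed more than 2-fold, 26 of them higher and 115 lower. In 195 of the 207 the 3 marked and 3 unmarked values did not overlap, which 16.3% of all tested genes also showed. The list counts that follow are to be read beside these shares over all tested genes, 1.77% called and 16.3% without overlap. All 3 pairs had 1 sign in 203 of the 207. Of the 73 called genes that the naming rule selected, 39 passed whichever of the 6 libraries was left out. With the block, leaving out 1 library also takes its partner out of the difference. Both libraries of a pair therefore give the same fold change, and the 6 fits hold 3 separate fold changes per gene. Counts below of libraries that end a call are not 6 separate checks. The split between directions moved with the scaling, because the median of all genes was -0.13 on CPM and -0.01 after TMM scaling. TMM scaling called 159 genes (1.36%), 66 higher and 93 lower. Without the specimen block 69 genes (0.589%) passed, 10 higher and 59 lower, and all 69 were among the 207. Leaving out unmarked replicate 3 gave 91 calls, marked replicate 3 gave 115 and the other 4 libraries 151 to 186. Without marked replicate 1, 71 of the 186 calls were higher in marked cells.

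**Figure D1:**
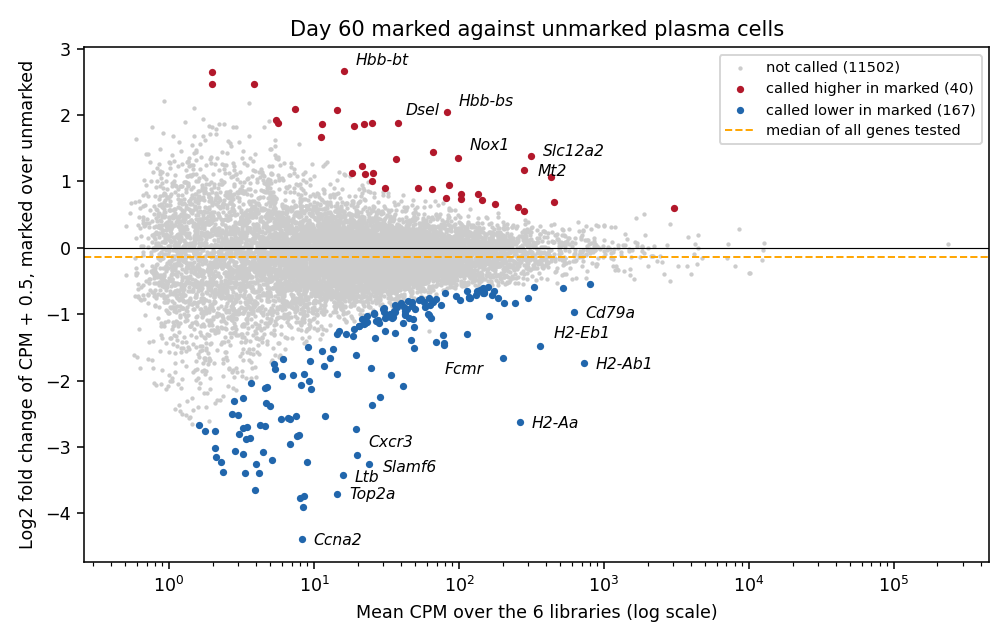
Each point is 1 of the 11709 tested genes, placed by its mean CPM over the 6 libraries (log scale) and its log2 fold change, marked over unmarked. The 40 genes called higher in marked cells are red and the 167 called lower are blue. The dashed line is the median of all genes, -0.13, and the largest falls reach below -4.

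Among all genes tested, the MHC class II genes H2-Aa and H2-Ab1 held the smallest p-values. MHC class II molecules present peptides to CD4 T cells and are lost as B cells become plasma cells. Of the 11 genes of the list, 9 were tested, of which 5 fell in marked cells and 0 rose. All 9 had negative fold changes, as did 7542 of the 11709 tested genes. The median of the 9 was -1.48, against -0.13 over all genes. H2-Aa, the alpha chain of I-A (chr17:34282744-34287823), measured 112, 62.6 and 54.8 CPM in marked libraries, against 465, 458 and 435 CPM in unmarked libraries. The highest marked value was far below the lowest unmarked one. The log2 fold change of H2-Aa was -2.63 ± 0.17 (SE), adjusted p = 1.48e-16, the smallest p of any gene tested.

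The other 4 genes that fell were the beta chain genes H2-Ab1, H2-Eb1 and H2-Eb2, and H2-Ob, a chain of a modifier. H2-Ab1, the beta chain of I-A (chr17:34257689-34269419), measured 414, 287 and 313 CPM in marked libraries, against 1061, 1111 and 1161 CPM in unmarked libraries. H2-Eb1, which encodes the I-E beta chain (chr17:34305867-34316674), measured 219.9, 184 and 174 CPM in marked libraries, against 534, 544 and 528 CPM in unmarked libraries. Neither gene had overlapping groups, and their log2 fold changes were -1.73 ± 0.15 and -1.48 ± 0.15 (SE), with adjusted p = 6.66e-12 and 1.06e-09. H2-Ob, a chain of the H2-O molecule that restrains peptide loading in B cells, measured 30.1, 27.4 and 19.1 CPM in marked libraries, against 66.7, 90.1 and 62.4 CPM in unmarked libraries. H2-Eb2, a second beta chain gene of the I-E region, averaged 31.03 ± 9.56 CPM in marked and 64.8 ± 11.3 CPM in unmarked libraries, with adjusted p = 0.00218, 0.0632 without the block, 0.109 without marked replicate 2 and 0.153 without unmarked replicate 2. Cd74, the invariant chain that guides class II molecules, was the exception among the abundant genes. It measured 8226, 8766 and 9487 CPM in marked libraries, against 13483, 10415 and 10632 CPM in unmarked libraries, a log2 fold change of -0.38 with adjusted p = 0.355. Cd74 was lower in each marked library than in any unmarked one. Ciita, the master activator of class II genes, was below the read filter: it had 0 reads in the 3 marked libraries, and 1.58, 6.01 and 0 CPM in unmarked replicates 1, 2 and 3. MHC class I and peptide loading genes had 0 of 13 called and a median of -0.21.

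The upstream sequences of 3 of these genes are shown because class II promoters are known to share a set of boxes near the start, 1 of which, the Y box, is a CCAAT box in reverse. Sequences are from RefSeq (GRCm38.p6), the 250 bases before the annotated start in the direction of transcription, and positions count back from that start at -1. Capitals mark CCAAT on either strand (ATTGG where reversed). The windows are chr17:34287824-34288073, minus strand; chr17:34305617-34305866, plus strand; and chr17:34238655-34238904, plus strand.
H2-Aa: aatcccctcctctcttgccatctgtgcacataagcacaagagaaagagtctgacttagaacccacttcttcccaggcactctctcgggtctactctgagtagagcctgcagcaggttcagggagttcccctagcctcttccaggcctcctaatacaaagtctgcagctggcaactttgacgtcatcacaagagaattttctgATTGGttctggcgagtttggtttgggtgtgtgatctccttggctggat
H2-Eb1: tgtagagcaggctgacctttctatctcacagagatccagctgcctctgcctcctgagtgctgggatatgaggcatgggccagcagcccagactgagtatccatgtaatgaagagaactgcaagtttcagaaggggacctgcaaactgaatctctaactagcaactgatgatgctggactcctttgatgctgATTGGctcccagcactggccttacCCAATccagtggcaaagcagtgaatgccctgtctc
H2-Ob: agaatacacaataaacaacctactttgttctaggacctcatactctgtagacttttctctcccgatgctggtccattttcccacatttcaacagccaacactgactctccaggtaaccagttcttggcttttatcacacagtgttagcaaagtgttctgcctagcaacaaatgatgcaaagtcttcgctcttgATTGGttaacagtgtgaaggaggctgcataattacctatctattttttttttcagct
ATTGG begins at -48 in H2-Aa, at -59 in H2-Eb1 and at -57 in H2-Ob. Of the 5 class II genes that fell, 4 are in the promoter table and all 4 hold CCAAT or ATTGG, as do 37.5% of the 27025 genes of the table in at least 1 window of the same length (33.8% of its 32851 promoters). A match is a description of letters, not of binding.

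B cell genes other than class II were lower in part. Of 24 tested genes of B cell identity and receptor signalling, 7 fell in marked cells and 0 rose, and the median was -0.59. Cd79a, the Ig-alpha subunit that signals for surface immunoglobulin (chr7:24897381-24902197), measured 370.2, 431 and 449 CPM in marked libraries, against 946, 758 and 757 CPM in unmarked libraries. All marked values were below all unmarked ones, with a log2 fold change of -0.97 ± 0.15 (SE), adjusted p = 1.74e-05. Fcmr, the receptor for the Fc part of IgM (chr1:130865669-130880791), measured 104, 80.5 and 103 CPM in marked libraries, against 254, 282 and 383 CPM in unmarked libraries. Its groups were also apart, with a log2 fold change of -1.66 ± 0.17 (SE), adjusted p = 5.35e-10. Pik3cd, the leukocyte PI3 kinase subunit, the kinase gene Syk, the scaffold gene Bank1 and the ectoenzyme gene Cd38 also passed, with log2 fold changes of -0.998, -0.67, -0.83 and -0.78. Without the block these 4 did not pass (adjusted p = 0.0632, 0.170, 0.113 and 0.255), and Syk, Bank1 and Cd38 also did not pass after TMM scaling. Leaving out a library raised the adjusted p of Syk (0.183 without unmarked replicate 3; 4 of the 6 libraries end the call), Bank1 (0.340 without unmarked replicate 2; 6 of the 6 libraries end the call), Cd38 (0.374 without unmarked replicate 2; 4 of the 6 libraries end the call) and Pik3cd (0.221 without unmarked replicate 3; 2 of the 6 libraries end the call), so that 3 to 5 of the 24 genes passed. Ms4a1, the B cell surface gene encoding CD20, averaged 212 ± 26.4 CPM in marked and 216 ± 32.8 CPM in unmarked libraries, with adjusted p = 0.976. In sorted bulk samples, fewer cells of a type and less RNA per cell cannot be told apart.

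Genes of mitosis were lower in marked cells, by more on the log2 scale than any other list. Of 30 listed genes of mitosis and G2/M, 26 were tested, of which 18 fell and 0 rose. In 24 of the 26 the groups did not overlap, against 16.3% of all tested genes. Of the 18 that fell, only Top2a, Mki67 and Cdca3 met the read filter's level in all 3 marked libraries. The others passed the filter with the help of the unmarked libraries. Some, such as Kif11 and Ccnb2 with at most 0.357 CPM in any marked library, passed through the unmarked libraries alone. A call of such genes could only, or nearly only, be a fall. The counts of calls and of groups without overlap and the median include them, and so are in part set by the filter. The median log2 fold change was -2.67, or -2.80 with the 2 genes that had a group without reads set at their bound. Summed over the list, levels were 40.4 to 76.7 CPM in marked libraries and 257 to 311 CPM in unmarked libraries. Top2a, the topoisomerase that untangles chromosomes (chr11:98992943-99024189), measured 1.78, 1.31 and 1.79 CPM in marked libraries, against 21.8, 28.3 and 32.00 CPM in unmarked libraries. Its log2 fold change was -3.70 ± 0.42 (SE), adjusted p = 1.01e-08, and every marked library was below every unmarked one. Ccna2, the cyclin of S phase and G2 (chr3:36564865-36572150), had no read in marked replicates 1 and 2 and 1.43 CPM in marked replicate 3, against 15.7, 17.8 and 14.4 CPM in unmarked libraries. Ccna2 showed the largest fall of any tested gene, with a log2 fold change of -4.39 ± 0.56 (SE), adjusted p = 2.25e-07. Cdk1, the kinase that drives entry into mitosis, measured 0.485, 3.69 and 0.894 CPM in marked libraries, against 15.7, 18.03 and 15.1 CPM in unmarked libraries.

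Further mitotic genes fell as well. Cdc20, which switches on the ubiquitin ligase of anaphase, averaged 0.883 ± 0.905 CPM in marked and 16.3 ± 5.34 CPM in unmarked libraries, and Ube2c, an E2 enzyme of that ligase, 1.23 ± 2.13 CPM in marked and 15.7 ± 6.95 CPM in unmarked libraries. Their log2 fold changes were -3.74 and -3.91, with adjusted p = 1.74e-06 and 1.80e-06. The cyclin gene Ccnb2, the spindle genes Tpx2, Prc1 and Nusap1, the kinase genes Aurkb, Plk1, Aurka and Nek2, and Birc5, Ect2 and Cdca3 all fell, by log2 fold changes between -3.39 (Ccnb2) and -1.67 (Cdca3). Cdca5, a cohesin regulator outside the list, had a log2 fold change of -3.10 with adjusted p = 0.00203. Its marked libraries did not all meet the read filter's level either. The spindle motor gene Kif11 had 3 reads over the 3 marked libraries and 296 over the 3 unmarked ones. Mki67, the proliferation marker, was the most abundant in marked cells of the 18 that fell: it measured 8.09, 23.2 and 24.4 CPM in marked libraries, against 34.4, 30.4 and 63.4 CPM in unmarked libraries. The Mki67 groups did not overlap, its log2 fold change was -1.26 ± 0.28 (SE), adjusted p = 0.00495, and its adjusted p was 0.209 without the block. Without the block 14 of the 26 mitotic genes passed, and leaving out 1 library left 10 (without unmarked replicate 3) to 16 of them called. With all 12 libraries in 1 fit, where 38 genes (0.325%) passed, 8 of the 26 did. After TMM scaling 16 passed, without Aurka and Cdca3 (adjusted p = 0.0761 and 0.0972). The calls that ended, with their highest adjusted p, were Mki67 (0.133 without unmarked replicate 1; 4 of the 6 libraries end the call), Birc5 (0.0994 without unmarked replicate 3), Aurka (0.343 without unmarked replicate 3; 4 of the 6 libraries end the call), Plk1 (0.0861 without unmarked replicate 3; 3 of the 6 libraries end the call), Nusap1 (0.0912 without unmarked replicate 3), Cdca3 (0.350 without unmarked replicate 2; 5 of the 6 libraries end the call), Nek2 (0.190 without unmarked replicate 2; 3 of the 6 libraries end the call) and Ect2 (0.142 without unmarked replicate 2; 5 of the 6 libraries end the call), and outside the list Cdca5 (0.0972 without unmarked replicate 3).

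The upstream sequences of a pair of mitotic genes are shown because late cell cycle promoters are known to combine CCAAT boxes with the cell cycle homology region, TTTGAA. Capitals mark CCAAT or ATTGG, and TTTGAA or its reverse complement TTCAAA. The windows, from RefSeq (GRCm38.p6), are chr11:99024190-99024439, minus strand; and chr4:118437344-118437593, minus strand.
Top2a: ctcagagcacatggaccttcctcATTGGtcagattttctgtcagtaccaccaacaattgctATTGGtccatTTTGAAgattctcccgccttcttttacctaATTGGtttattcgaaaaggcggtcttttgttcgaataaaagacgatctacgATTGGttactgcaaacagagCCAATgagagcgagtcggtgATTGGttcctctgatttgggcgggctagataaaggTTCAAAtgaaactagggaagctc
Cdc20: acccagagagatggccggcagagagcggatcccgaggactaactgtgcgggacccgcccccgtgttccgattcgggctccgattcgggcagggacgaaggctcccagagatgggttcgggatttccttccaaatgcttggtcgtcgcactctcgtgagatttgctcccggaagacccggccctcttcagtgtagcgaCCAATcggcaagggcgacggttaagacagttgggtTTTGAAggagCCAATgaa
Top2a holds 6 CCAAT boxes on either strand, the nearest at -58 (ATTGG), and a TTCAAA begins at -23. In Cdc20 a TTTGAA begins at -18, between CCAAT at -53 and at -8. Of the 18 mitotic genes that fell, 15 are in the promoter table; 13 hold CCAAT on either strand and 9 hold TTTGAA on either strand. Over all 27025 genes of the table, counted the same way, the shares are 37.5% and 18.3%. In these windows the motifs do not overlap, and a match says nothing of which factor binds.

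Genes of DNA replication moved less. Of 29 tested, 3 fell and 0 rose, with a median of -0.52. Rrm2, the regulated subunit of the enzyme that makes deoxynucleotides, measured 8.82, 12.7 and 10.5 CPM in marked libraries, against 40.1, 37.3 and 37.6 CPM in unmarked libraries. No marked value reached the lowest unmarked one, and the log2 fold change was -1.81 ± 0.29 (SE), adjusted p = 2.41e-05. The helicase genes Mcm7 and Cdc45 had log2 fold changes of -1.30 and -1.76 with adjusted p = 0.0386 and 0.0443, and neither passed without the block (0.188 and 0.104) or after TMM scaling. Leaving out a library ended the calls of Mcm7 (0.526 without unmarked replicate 2; 4 of the 6 libraries end the call) and Cdc45 (0.232 without unmarked replicate 3; 6 of the 6 libraries end the call). Among 19 genes of Myc and G1 control, 2 fell and 0 rose. Ccnd2, the D-type cyclin of B cells, measured 31.5, 43.5 and 59.98 CPM in marked libraries, against 116, 109.7 and 102 CPM in unmarked libraries, groups that did not overlap (log2 fold change -1.32 ± 0.20 (SE), adjusted p = 1.69e-05). Pim2, a survival kinase, averaged 71.7 ± 10.3 CPM in marked and 119 ± 14.98 CPM in unmarked libraries, with adjusted p = 0.0190, 0.0975 without the block and 0.0761 after TMM scaling. It also did not pass after some libraries were left out (0.238 without unmarked replicate 3; 4 of the 6 libraries end the call).

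**Figure D2:**
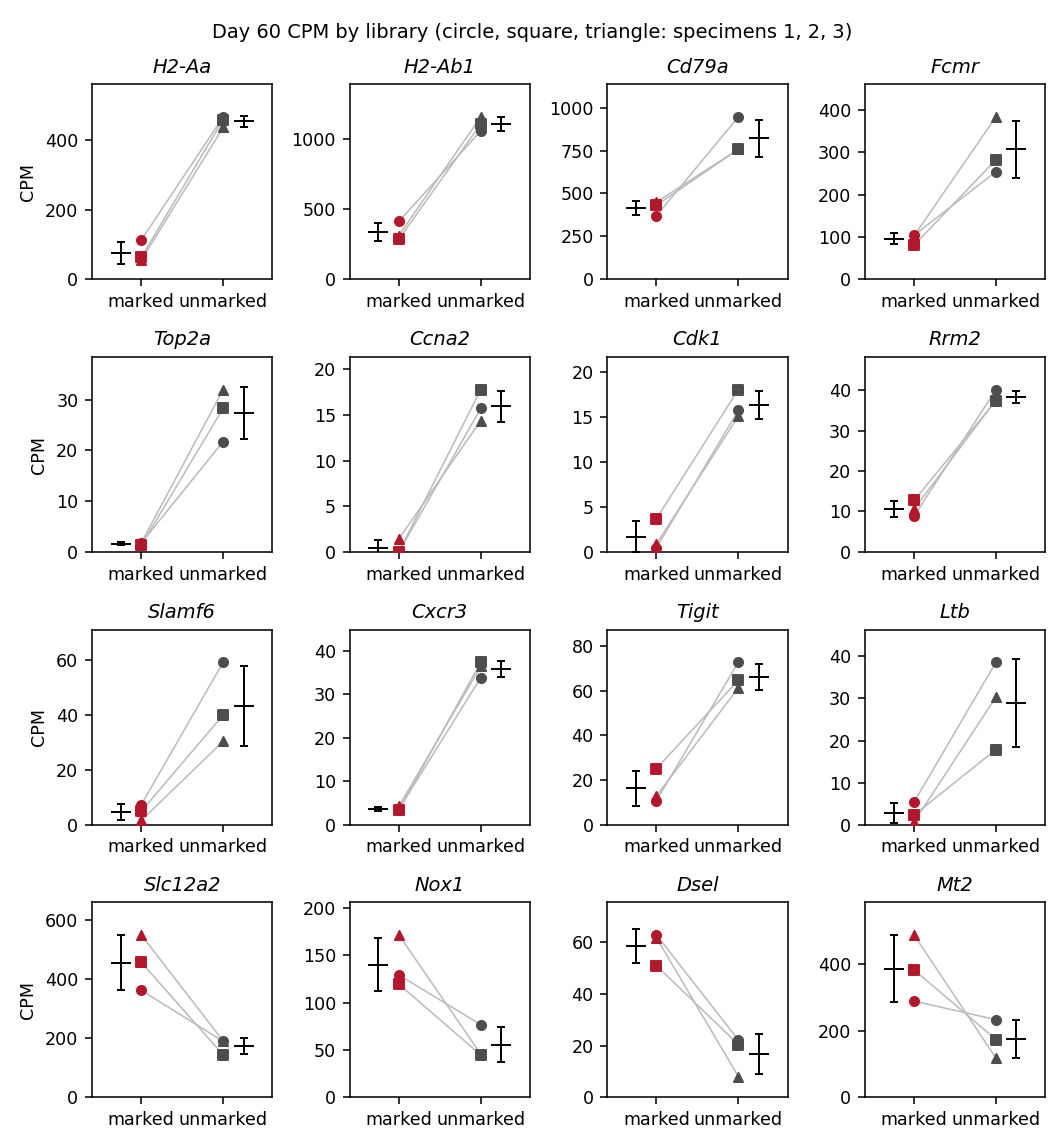
CPM of 16 genes in each day 60 library, marked on the left (red) and unmarked on the right (grey), with a line joining the libraries of a specimen and a bar for the mean ± SD. In the top 3 rows every marked value lies below every unmarked value, and in the bottom row every marked value lies above.

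Receptors for migration and contact formed a further group of falls. Of 11 tested chemokine and sphingosine phosphate receptors, 4 fell and 0 rose, where 1.43% of all tested genes fell and 0.342% rose. The list's median, -0.22, was close to that of all genes. Cxcr3, the receptor for interferon-induced chemokines (chrX:101731535-101734269), measured 3.56, 3.33 and 4.20 CPM in marked libraries, against 33.8, 37.3 and 36.4 CPM in unmarked libraries. Values within each population were tight and the populations were far apart, with a log2 fold change of -3.12 ± 0.35 (SE), adjusted p = 8.03e-09. Ccr10, a receptor of mucosal plasma cells, measured 51.7, 25.2 and 33.97 CPM in marked libraries, against 150.3, 84.8 and 67.4 CPM in unmarked libraries. Its log2 fold change was -1.41 ± 0.21 (SE), adjusted p = 5.14e-06, and in both populations specimen 1 was the highest. S1pr1, the receptor that lets lymphocytes leave tissues, averaged 0.630 ± 0.648 CPM in marked and 6.30 ± 2.52 CPM in unmarked libraries, and S1pr4, a related lymphocyte receptor, 11.04 ± 1.94 CPM in marked and 26.5 ± 3.76 CPM in unmarked libraries. Both passed (adjusted p = 0.00604 and 0.0173) but not without the block (0.0701 and 0.0694), and S1pr4 did not after TMM scaling (0.0525). S1pr1, at 1.29, 0.595 and 0 CPM in marked libraries, passed the read filter with the help of the unmarked ones. Its call could hardly be other than a fall. Cxcr4, the receptor that holds plasma cells in the marrow, averaged 304 ± 12.3 CPM in marked and 343 ± 31.04 CPM in unmarked libraries, with adjusted p = 0.698. Of 21 integrin and adhesion genes, 2 fell: Itga4 and Itgb7, the chains of the gut-homing integrin, each with a log2 fold change of -0.68. Neither passed without the block (adjusted p = 0.141 and 0.244) or after TMM scaling. Leaving out a library ended the calls of S1pr1 (0.0916 without unmarked replicate 3; 3 of the 6 libraries end the call), S1pr4 (0.214 without unmarked replicate 3; 4 of the 6 libraries end the call), Itga4 (0.151 without unmarked replicate 3; 5 of the 6 libraries end the call) and Itgb7 (0.286 without unmarked replicate 2; 4 of the 6 libraries end the call).

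Several contact and inhibitory receptors better known from T cells were lower in marked cells. Slamf6, a self-binding SLAM family receptor (chr1:171917515-171953170), measured 7.28, 4.88 and 1.52 CPM in marked libraries, against 59.2, 40.01 and 30.4 CPM in unmarked libraries. Every marked library was far below every unmarked one, and the log2 fold change was -3.26 ± 0.34 (SE), adjusted p = 1.14e-09. Cd2, an adhesion receptor, measured 9.30, 3.33 and 2.77 CPM in marked libraries, against 21.1, 45.2 and 35.7 CPM in unmarked libraries, with a log2 fold change of -2.73 ± 0.38 (SE), adjusted p = 1.74e-06. These were the 2 falls among 9 tested genes of the SLAM family and CD2, with 0 rises. Tigit, an inhibitory receptor (chr16:43648867-43664146), measured 10.8, 25.1 and 12.9 CPM in marked libraries, against 72.8, 64.7 and 61.2 CPM in unmarked libraries. Its groups did not overlap, and the log2 fold change was -2.09 ± 0.25 (SE), adjusted p = 9.17e-08. Lag3, another inhibitory receptor that binds MHC class II, averaged 91.9 ± 42.7 CPM in marked and 144 ± 26.6 CPM in unmarked libraries; it passed (adjusted p = 0.0283) with overlapping groups, and neither without the block (0.351) nor after TMM scaling (0.149). Tigit and Lag3 were the 2 falls among 9 tested inhibitory receptors, with 0 rises. Ltb, the membrane-anchoring lymphotoxin chain (chr17:35194439-35196320), was the 1 call among 15 tested genes of the TNF family and NF-kB. It measured 5.34, 2.26 and 0.626 CPM in marked libraries, against 38.6, 17.9 and 30.3 CPM in unmarked libraries, groups far apart (log2 fold change -3.42 ± 0.42 (SE), adjusted p = 9.86e-08). Ltbr, the receptor for lymphotoxin, went the other way at a lower level: 5.01, 9.99 and 10.9 CPM in marked libraries, against 2.63, 4.12 and 0.344 CPM in unmarked libraries. Its adjusted p was 0.0439, and it did not pass without the block (0.224) or after TMM scaling. Leaving out a library ended the calls of Ltbr (0.565 without marked replicate 3; 3 of the 6 libraries end the call) and Lag3 (0.598 without unmarked replicate 1; 4 of the 6 libraries end the call).

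Markers of T and NK cells were looked at beside these receptors. Of 22 listed markers, 12 were in the table and 5 were tested. The summed level of the 12 was 11.7 to 20.95 CPM in marked libraries and 33.7 to 62.8 CPM in unmarked libraries. Cd8b1 added 12.4 CPM in unmarked replicate 1, against 0.258 and 0.482 CPM in unmarked replicates 2 and 3. Trac, below the read filter, went the other way, with 2.02, 2.02 and 0.536 CPM in marked and 0.439, 0 and 0.344 CPM in unmarked libraries. Gzma and Cd3d, also below it, had no read in marked libraries and at most 5.44 and 0.963 CPM in an unmarked one. Prf1, the pore protein of killer cells, was the 1 call: it measured 2.27, 1.31 and 1.16 CPM in marked libraries, against 15.2, 17.3 and 10.05 CPM in unmarked libraries, a log2 fold change of -2.82 ± 0.47 (SE), adjusted p = 6.74e-05. Cd3e, Cd8a, Gzmb and Ncr1 were not among the genes measured here. The part of T or NK cells in the levels of Slamf6, Cd2, Tigit and Cxcr3 was not tested.

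Falls were also seen among genes of the cytoskeleton, lipid synthesis and ion transport. Of 22 cytoskeleton and S100 genes, 4 fell and 0 rose. Vim, the intermediate filament vimentin, measured 8.65, 21.7 and 13.6 CPM in marked libraries, against 48.8, 47.1 and 64.96 CPM in unmarked libraries. No marked library reached the unmarked range (log2 fold change -1.92 ± 0.27 (SE), adjusted p = 2.06e-06). Coro1a, a regulator of the actin cortex, averaged 105 ± 1.08 CPM in marked and 215 ± 28.2 CPM in unmarked libraries (log2 fold change -1.02 ± 0.17 (SE), adjusted p = 5.00e-05). The actin bundler Lcp1 and the annexin Anxa2 passed with log2 fold changes of -0.76 and -2.01, and neither did without the block (adjusted p = 0.184 and 0.0830), nor did Lcp1 after TMM scaling (0.0663). Of 19 genes of sterol and fatty acid synthesis, 2 fell and 0 rose, with a median of -0.46. Scd1, a fatty acid desaturase, measured 19.8, 12.3 and 9.83 CPM in marked libraries, against 62.9, 26.4 and 26.3 CPM in unmarked libraries, and Fasn, the fatty acid synthase, averaged 42.6 ± 18.4 CPM in marked and 82.4 ± 8.67 CPM in unmarked libraries. In both genes the groups were apart (adjusted p = 0.00203 and 0.00214), and without the block neither passed (0.124 and 0.104). Leaving out a library ended the calls of Fasn (0.0936 without unmarked replicate 2; 2 of the 6 libraries end the call), Lcp1 (0.374 without unmarked replicate 1; 2 of the 6 libraries end the call) and Anxa2 (0.0902 without unmarked replicate 1; 2 of the 6 libraries end the call). Atp1b1, the beta subunit of the sodium pump, measured 7.85, 6.42 and 5.99 CPM in marked libraries, against 79.2, 33.9 and 18.2 CPM in unmarked libraries. The marked values lay close together and the unmarked ones were spread, all of them above (log2 fold change -2.37 ± 0.33 (SE), adjusted p = 1.74e-06).

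Fewer genes rose than fell on the CPM scale, 40 against 167. By limma-voom 187 genes (1.6%) passed, 99 higher and 88 lower in marked cells, and with library quality weights 224 (1.91%), 121 higher and 103 lower. Slc12a2, the cotransporter that brings sodium, potassium and chloride into cells, measured 363, 458 and 551 CPM in marked libraries, against 189.8, 144 and 191 CPM in unmarked libraries. The lowest marked value was above the highest unmarked one, and the log2 fold change was 1.38 ± 0.16 (SE), adjusted p = 2.34e-08. Slc12a2 and Atp1b1 were the 2 calls, in opposite directions, among 17 ion transport genes. Nox1, a catalytic subunit of NADPH oxidase (chrX:134086421-134221956), measured 129, 119.7 and 172 CPM in marked libraries, against 76.7, 44.7 and 45.6 CPM in unmarked libraries. Its groups were apart (log2 fold change 1.35 ± 0.20 (SE), adjusted p = 3.63e-06), and it was the 1 call among 8 tested oxidase subunits. Dsel, which encodes an epimerase-like enzyme of dermatan sulfate, measured 62.9, 51.04 and 61.9 CPM in marked libraries, against 22.2, 20.4 and 8.05 CPM in unmarked libraries, again apart (log2 fold change 1.88 ± 0.27 (SE), adjusted p = 2.19e-06).

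Both metallothioneins, small metal-binding proteins, rose. Mt1 measured 489.6, 631 and 595 CPM in marked libraries, against 417, 301 and 161 CPM in unmarked libraries, and Mt2 289, 383 and 488 CPM in marked libraries, against 234, 174 and 118 CPM in unmarked libraries. Specimen 1 was the lowest of the marked and the highest of the unmarked libraries for both genes, the groups did not overlap, and the difference was largest in specimen 3. Log2 fold changes were 1.06 ± 0.18 and 1.16 ± 0.18 (SE), with adjusted p = 6.45e-05 and 2.41e-05. Without marked replicate 3 neither passed (adjusted p = 0.142 and 0.0999), nor without unmarked replicate 3 (0.142 and 0.0916), nor did Mt1 without the block (0.0830). They were the 2 calls among 19 metallothionein and antioxidant genes, whose median was 0.09.

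Other genes with large rises were mostly of low abundance. Cox6a2, a cytochrome oxidase subunit best known from muscle, measured 76.4, 102 and 112 CPM in marked libraries, against 25.5, 42.3 and 39.4 CPM in unmarked libraries, groups that did not overlap (log2 fold change 1.44 ± 0.20 (SE), adjusted p = 2.19e-06). It was the 1 call among 77 tested nuclear genes of the respiratory chain, a share below the 1.77% called over all tested genes. Of these 77, 64 had positive fold changes, as did 4167 of the 11709 tested genes. The list's median was 0.15, against -0.13 over all genes. Respiratory chain genes are short, with a median exonic length of 1718 bases against 4166 for all tested genes. The median log2 fold change of all genes was -0.01 in the shortest 25% of genes and -0.24 in the longest 25%, and the part of length in the respiratory chain values was not tested. With each library's trend on length subtracted, where 145 genes (1.24%) passed, 67 of the 77 had positive fold changes and the median was 0.17, against 0.0024 over all genes in that fit, so that the list's distance from all genes was smaller than before.

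Adrb1, the beta-1 adrenergic receptor, measured 14.6, 19.4 and 19.4 CPM in marked libraries, against 6.58, 6.78 and 1.86 CPM in unmarked libraries (log2 fold change 1.87 ± 0.40 (SE), adjusted p = 0.00384). Foxp2, a forkhead transcription factor, measured 12.2, 50.6 and 58.1 CPM in marked libraries, against 4.04, 10.04 and 15.5 CPM in unmarked libraries, and here the groups overlapped although each pair rose (log2 fold change 1.88 ± 0.31 (SE), adjusted p = 4.31e-05). Neither passed without the block (adjusted p = 0.0797 and 0.156). Spag6l, a gene of the ciliary axoneme, averaged 29.4 ± 4.90 CPM in marked and 8.39 ± 4.13 CPM in unmarked libraries (log2 fold change 1.83 ± 0.32 (SE), adjusted p = 1.82e-04). Enpp5, an ectonucleotidase family member, and Pdia5, a disulfide isomerase of the endoplasmic reticulum, had log2 fold changes of 1.66 and 1.87, with adjusted p = 0.0129 and 0.0338, and 0.114 and 0.133 without the block. Fcer1g, the signalling chain of several Fc receptors, averaged 112 ± 26.8 CPM in marked and 57.4 ± 8.50 CPM in unmarked libraries (log2 fold change 0.94 ± 0.19 (SE), adjusted p = 0.00203; adjusted p = 0.0626 without the block). Among 10 Fc receptor genes, Fcer1g was the 1 rise and Fcmr the 1 fall. Bmi1, a Polycomb protein linked to self-renewal, measured 244, 182 and 229 CPM in marked libraries, against 143, 145 and 125 CPM in unmarked libraries. Its groups did not overlap (log2 fold change 0.65 ± 0.17 (SE), adjusted p = 0.0217), it was the 1 call among 15 Polycomb genes, and its adjusted p was 0.0988 without the block. Ly6a, the surface antigen Sca-1, measured 2256, 2189 and 2228 CPM in marked libraries, against 1753, 1663 and 1309 CPM in unmarked libraries. The groups were apart, yet the adjusted p was 0.0684 at a log2 fold change of 0.51 ± 0.15 (SE). Leaving out a library ended the calls of Adrb1 (0.266 without marked replicate 3; 2 of the 6 libraries end the call), Enpp5 (0.330 without marked replicate 3; 2 of the 6 libraries end the call), Pdia5 (0.415 without marked replicate 3; 4 of the 6 libraries end the call), Fcer1g (0.142 without marked replicate 3; 2 of the 6 libraries end the call) and Bmi1 (0.274 without marked replicate 3; 4 of the 6 libraries end the call). After TMM scaling Ly6a passed (adjusted p = 0.0149).

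Genes of the secretory machinery, which fill much of a plasma cell's transcriptome, gave no call. The counts were 0 of 25 for the unfolded protein response and endoplasmic reticulum degradation (median -0.13) and 0 of 32 for translocation and vesicle transport (median 0.01). Calr, a calcium-binding chaperone, averaged 2774 ± 452 CPM in marked and 2677 ± 213 CPM in unmarked libraries. Hsp90b1, the chaperone of the reticulum, measured 1013, 3067 and 2961 CPM in marked libraries, against 2102, 2883 and 3442 CPM in unmarked libraries, and marked replicate 1 stood far below the other 5. Jchain, the joining chain of secreted IgA and IgM, was the most abundant gene of the table and had a log2 fold change of 0.06 ± 0.34 (SE). Cytosolic ribosomal proteins had 0 of 79 called (median -0.05) and proteasome subunits 0 of 46 (median 0.06). The Bcl2 family had 0 of 15, death receptors and caspases 0 of 11, and plasma cell survival receptors with their signalling 0 of 13, with medians of -0.14, -0.09 and -0.14. Bcl2 itself averaged 59.8 ± 8.90 CPM in marked and 58.3 ± 1.93 CPM in unmarked libraries. In simulated data of this design 34 of 50 genes lowered 2-fold and 17 of 50 genes raised 2-fold were called, so changes of that size in single genes of these lists can have been missed.

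**Figure D3:**
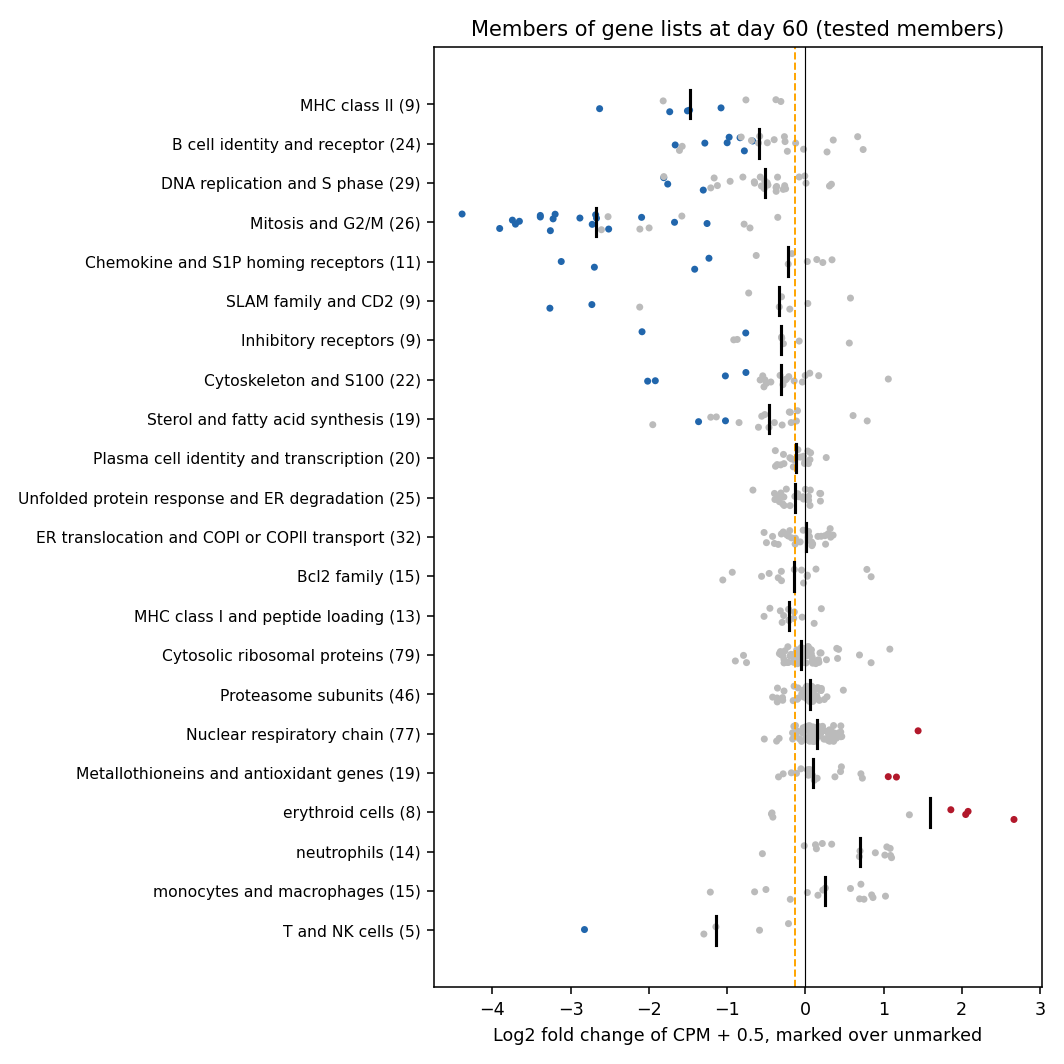
Log2 fold changes, marked over unmarked, of the tested members of 22 gene lists (number tested in parentheses); red members were called higher in marked cells, blue lower, grey not called. Black bars are list medians and the dashed line is the median of all genes, -0.13. Mitotic genes centre at -2.67 and MHC class II genes at -1.48. The unfolded protein response list centres at -0.13 and the translocation and vesicle transport list at 0.01.

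Markers of other marrow cells were measured in the same libraries. Of 14 erythroid markers 8 were tested and 4 rose, all of them globin genes. Hbb-bs, an adult beta globin, measured 65.4, 192 and 149.8 CPM in marked libraries, against 19.8, 39.7 and 32.3 CPM in unmarked libraries. Each marked library was above each unmarked one, and the log2 fold change was 2.05 ± 0.20 (SE), adjusted p = 4.50e-10. Hbb-bt, a second beta globin, and the alpha globins Hba-a2 and Hba-a1 had log2 fold changes of 2.67, 2.08 and 1.86; the last 2 are near-identical copies whose reads cannot be assigned with certainty. Hbb-bt and Hba-a1 passed without the block, and Hba-a2 did not (adjusted p = 0.0632), nor did it without marked replicate 2 (0.125). The summed erythroid level was 110.2 to 356 CPM in marked libraries and 46.3 to 72.4 CPM in unmarked libraries, and Klf1, Gata1 and Ahsp were not among the genes measured here.

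Neutrophil markers had 0 of 14 called, and their sums spanned 1.94 to 882 CPM in marked libraries and 25.4 to 322 CPM in unmarked libraries. S100a9, a granulocyte calcium-binding protein, measured 0.243, 282 and 72.6 CPM in marked libraries, against 9.83, 103 and 6.61 CPM in unmarked libraries, so that specimen 1 was lower in the marked library and specimens 2 and 3 were higher there. Without marked replicate 1, 7 of the 14 neutrophil markers rose. Leaving out unmarked replicate 1 takes out the same pair and gave the same fold changes and the same count. Monocyte and macrophage markers had 0 of 15 called, with sums of 273 to 449 CPM in marked libraries and 169.9 to 480.1 CPM in unmarked libraries. Without marked or unmarked replicate 1, 4 of the 15 rose and the median was 1.05, against 0.26 with all 6 libraries. After TMM scaling, and with the length trend removed, 1 of the 15 rose. The sums for plasmacytoid and other dendritic cells were 493 to 629 CPM in marked libraries and 556 to 609 CPM in unmarked libraries, and Cox6a2, described above, was the 1 call of 7. Megakaryocyte, basophil and mast cell, stromal and early B cell markers had 0 calls among 1, 2, 3 and 5 tested. The part of red cell or granulocyte RNA in other rises was not tested.

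**Figure D4:**
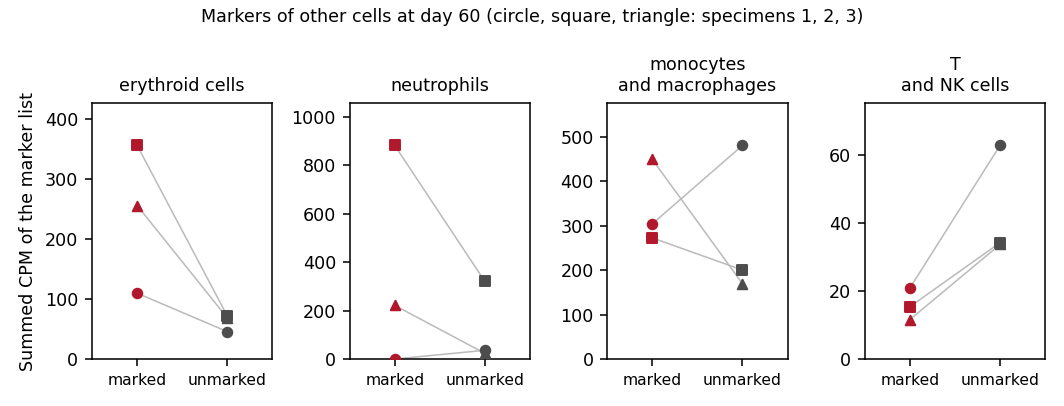
Summed CPM of 4 marker lists in each day 60 library, marked on the left (red) and unmarked on the right (grey), with lines joining the libraries of a specimen. Erythroid sums are higher in each marked library, T and NK cell sums lower, and the other 2 lists overlap.

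The authors' deposited table gives its own test for the same comparison, with 28 of 14219 genes (0.197%) at an FDR under 0.05, 12 higher and 16 lower in marked cells. Of these 28, 26 are among the 207 called here, H2-Aa, H2-Ab1, H2-Eb1, Cd79a, Fcmr and Slc12a2 among them. Most of the 207 did not reach that FDR in the authors' test. The called genes of the mitosis list did not, with Top2a at 0.0560, Ccna2 at 0.0585 and Cdk1 at 0.200. Nor did Slamf6 (0.0560), Ltb (0.114), Cxcr3 (0.132) or the globin genes (Hbb-bs 0.309).

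Day 270 libraries, which took no part in the day 60 test, were fitted in the same way for the same 11709 genes. There 12 genes passed (0.102%), 3 of them higher in marked cells, and all 12 are among the 207; 902 had an unadjusted p under 0.05. Of the 207, 151 (72.9%) had the day 60 sign in all 3 day 270 pairs, against 22.0% of all genes tested. At day 270 the unmarked libraries of replicates 2 and 3 have numbers 13 and 14 and the marked ones 22 and 23. In these pairs too, effects of library number and of marking cannot be told apart, and the shared signs do not separate them. In replicate 1 they are neighbours, 5 and 6. H2-Aa averaged 96.9 ± 55.3 CPM in marked and 360.1 ± 63.8 CPM in unmarked cells at day 270, a log2 fold change of -2.04 with adjusted p = 0.00709. Ccna2 had a log2 fold change of -2.28 at day 270 with adjusted p = 0.538, Cxcr3 -3.70 with 0.285, and Slc12a2 1.15 with 0.0872. In each of these 3 genes all 3 day 270 pairs had the day 60 sign. A fit of all 12 libraries asked whether the marked difference itself changed between the days. By limma, 0 of 12704 genes passed (smallest adjusted p = 0.9999), and 357 had an unadjusted p under 0.05. Dsel (1.88 at day 60 and 0.84 at day 270) did not pass that test.

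**Figure D5:**
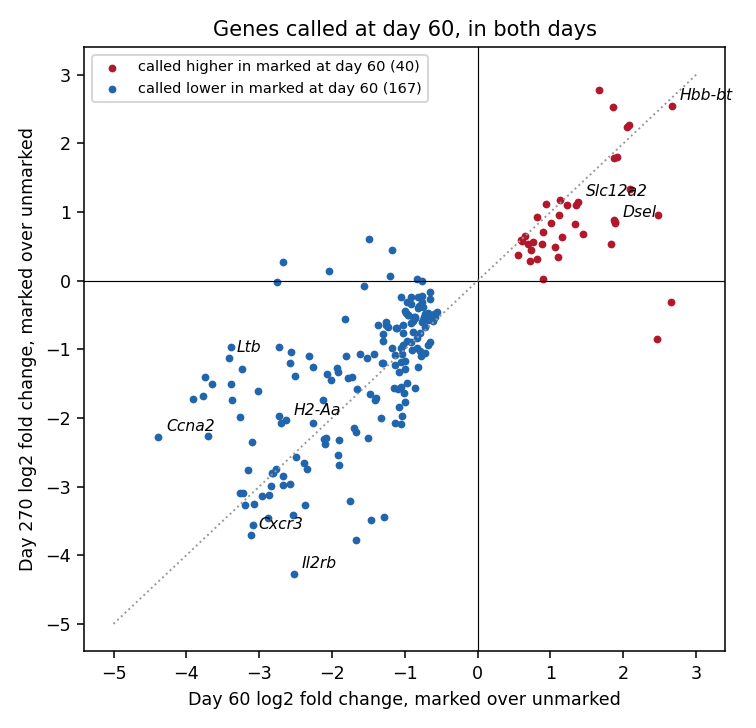
Log2 fold changes, marked over unmarked, of the 207 genes called at day 60, at day 60 (horizontal) and at day 270 (vertical). The dotted line marks equal values. Of the 207 genes, 199 have the same sign on both days.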

How the data were processed

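Members and gene lists were chosen with earlier results of these data known. Total RNA from RNeasy Micro kits went into TruSeq RNA libraries, per the labels' protocols. Per the submitters' processing notes the build was GRCm38 and limma was used; of aligner, counter and annotation none is named: not given in the sources used here. Deposited by the authors were CPM for 14219 genes in 12 libraries, with their log2 fold changes and p-values or FDR, and read counts for 230 genes. Per the file headers each CPM column belongs to 1 library. CPM multiplied by 1 total per library gave whole reads for 100% of the 131943 values under 1000 reads in the 12 libraries (within 0.05), and equalled the deposited counts in all 2760 cells.

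filterByExpr of edgeR 4.0.16 (minimum count 10, at least 3 libraries) kept 11709 genes. Testing used limma 3.58.1 (R 4.3.3, trended prior) on log2(CPM + 0.5) of the 6 day 60 libraries, with marking and specimen as terms (2 residual degrees of freedom, 48.7 prior), two-sided, at a Benjamini-Hochberg adjusted p under 0.05. Pairing comes from the specimen number in the labels. Deviations from group means correlated by 0.130, 0.0269 and 0.0936 within specimens and by -0.122 to 0.0353 between them. Nothing says whether specimens are single animals. With the block, p-values rest on how the marked difference varies among these pairs, not on the whole spread between samples. That variance comes mostly from the prior shared by all genes. On simulated data from the same libraries 50 of 50 genes lowered 4-fold, 49 of 50 raised 4-fold and 13 of 11509 unchanged genes were called. The simulated reads had 1 dispersion for every gene, and changed genes had a mean of at least 5 CPM. They held no ribosomal RNA load and no length trend, so these rates need not hold for the real libraries.

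Named genes are the 14 largest rises and 14 largest falls among called genes with 1 sign in all pairs and at least 5 CPM in the higher group, called members of lists, a set of plasma cell and B cell genes whatever their values, up to 2 abundant members of lists without a call, and the 10 most abundant genes. By this rule 7 gene models were counted and not named, and 1 called gene counted in the text is not reported here. Alternatives were no block, all 12 libraries, pseudocounts of 0.1 and 2, no low-value filter or a mean of at least 5 CPM, TMM, a robust prior, limma-voom with and without quality weights, edgeR quasi-likelihood and DESeq2 1.42.0 on the recovered reads, leaving out each library, and leaving out ribosomal RNA-like genes, globins and Jchain. Subtracting the trend on gene length was added after seeing the data. Gene coordinates come from GENCODE M21, where 14165 identifiers were found.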

Additional observations from a re-analysis of the deposited data

How the results depend on the processing

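Against 207 calls (40 higher and 167 lower in marked cells), the count was 69 (10 higher, 59 lower) with no replicate block, all of them shared, 38 (10 higher, 28 lower) with all 12 libraries in 1 fit, 134 (22 higher, 112 lower) with no low-value filter, 206 (45 higher, 161 lower) at a mean of at least 5 CPM, and 120 (35 higher, 85 lower) without ribosomal RNA-like genes, globins and Jchain. The split between directions also moved. TMM, which changes the scaling alone, gave 159 (66 higher, 93 lower), and removing the length trend 145 (62 higher, 83 lower). Tools that change the scaling and the model together gave 187 (99 higher, 88 lower) (limma-voom), 224 (121 higher, 103 lower) (voom with quality weights), 117 (44 higher, 73 lower) (edgeR) and 274 (122 higher, 152 lower) (DESeq2). Of the 207, these 6 shared 130, 118, 119, 133, 105 and 166. Of the 73 called genes of the naming rule, 14 did not pass after TMM scaling, 14 with the length trend removed and 41 with all 12 libraries. The 14 lost with the length trend are Ltbr, Pdia5, Mcm7, Cdc45, Mki67, Aurka, Cdca3, Syk, Cd38, Bank1, Pik3cd, Itga4, Lag3 and Lcp1. Pseudocounts of 0.1 and 2 gave 170 (31 higher, 139 lower) and 236 (43 higher, 193 lower), and a robust prior 258 (52 higher, 206 lower). Leaving out 1 library gave 91 to 186 calls with the block (10 to 81 higher and 81 to 134 lower), the fewest without unmarked replicate 3, and 22 to 109 without it (3 to 26 higher and 17 to 85 lower). In that last group, omitting marked replicates 1, 2 and 3 left 109 (26 higher, 83 lower), 41 (4 higher, 37 lower) and 92 (7 higher, 85 lower), and omitting unmarked replicates 1, 2 and 3 left 33 (9 higher, 24 lower), 22 (5 higher, 17 lower) and 24 (3 higher, 21 lower). In all 26 alternatives 12 of the 207 genes passed. They are H2-Aa, H2-Ab1, H2-Eb1, Cd79a, Fcmr, Ccna2, Top2a, Rrm2, Slamf6, Tigit, Slc12a2 and, outside the naming rule, Napsa.

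Without marked or unmarked replicate 1, the ribosomal RNA-like features Lars2 and Mir6236 turned to log2 fold changes of 0.82 and 0.87, past the threshold. Over the libraries left out in turn they ranged from -2.55 to 0.93 (Lars2) and from -2.29 to 0.94 (Mir6236), lowest without marked replicate 2. No other named gene past the threshold in either fit changed sign. The fit has 2 residual degrees of freedom and leans on a prior shared by all genes, and genes under about 5 CPM rest on few reads.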

Other observations

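Several lists outside the comparisons described held no call and give the levels of other plasma cell programmes. Among 18 genes of amino acid supply and the integrated stress response, Slc3a2, the shared chain of amino acid transporters, averaged 9449.6 ± 1565 CPM in marked and 7747 ± 711 CPM in unmarked libraries, with adjusted p = 0.527. Among 22 lysosomal genes, Ctss, a protease that trims the invariant chain, averaged 3224 ± 702 CPM in marked and 2515 ± 491 CPM in unmarked libraries, with adjusted p = 0.297. Of 17 glycolytic genes 15 had negative fold changes, as did 7542 of the 11709 tested genes, and the list's median was -0.25. After TMM scaling 10 were negative (median -0.13), and with the length trend removed 9 were (median -0.01). Aldoa averaged 574 ± 57.4 CPM in marked and 507 ± 22.6 CPM in unmarked libraries, and Pkm 193 ± 27.8 CPM in marked and 265 ± 27.9 CPM in unmarked libraries. Klf factors and TGF-beta signalling (19 tested), immediate early genes (14), heat shock proteins (14), interferon response (14) and autophagy (20) had medians of -0.36, -0.24, -0.23, 0.01 and -0.03, against -0.13 over all genes. The 7 tested mitochondrially encoded genes had a median of 0.07; mt-Co1 averaged 12982 ± 479.7 CPM in marked and 12539.5 ± 2472 CPM in unmarked libraries.

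The trend of the fold change on gene length differed between specimens. The median log2 fold change of the shortest 25% of genes was -0.03 in specimen 1, -0.12 in specimen 2 and 0.12 in specimen 3, and that of the longest 25% was -0.52 in specimen 1, -0.15 in specimen 2 and -0.04 in specimen 3. Rn18s-rs5, a ribosomal RNA feature, measured 2022, 31749 and 1953 CPM in marked libraries, against 8332, 2462 and 13278 CPM in unmarked libraries.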
